A study of Mus musculus with 25 samples.

Results

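The scavenger receptors described here were 7 genes chosen by symbol, Msr1, Marco, Cd36, Scarb1, Scarb2, Stab1 and Olr1, and all 7 were found among the 13482 genes of the count table. They were measured by bulk RNA sequencing of mouse lung macrophages in 25 libraries from mixed bone marrow chimeras, in which knockout and wild-type (WT) marrow develop side by side in the same irradiated host. In the IL9R chimeras, the labels pair cells called IL9RKO with WT cells, and the design text gives the donors as Il9r -/- and BoyJ WT marrow in recipients described as B6/BoyJ. In the ARG1 chimeras, the labels pair ARG1CKO cells, a conditional knockout of arginase 1 written here as Arg1 CKO, with WT cells. The Cre driver, the donors of the ARG1 chimeras, the floxed exons, the strain of the other cells, and the age of the animals are not given in the sources used here. From hosts with B16 tumor, a mouse melanoma line, CD11c+ IM and CD11c- IM were profiled, IM being the labels' own abbreviation for these macrophages. From naive hosts, which carried no tumor, total lung macrophages were profiled.

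For CD11c+ IM of tumor hosts there were 3 libraries labelled Il9r KO, 2 of Arg1 CKO cells, and 2 and 3 libraries of WT cells from the IL9R and the ARG1 chimeras. For CD11c- IM there were 3 libraries labelled Il9r KO, 3 of Arg1 CKO cells, and again 2 and 3 WT libraries. Naive macrophages gave 1 library each for cells labelled Il9r KO, Arg1 CKO cells, and the WT cells of each chimera. Nothing in the labels states that libraries of a group came from separate animals, so the p-values below measure only the spread between these libraries. In bulk samples a lower level can come from fewer cells of a type or from less RNA per cell, and these cannot be told apart.

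Scavenger receptors are surface or lysosomal proteins that bind modified lipoproteins, apoptotic cells, microbes and other polyanionic or lipid ligands, and macrophages carry many of them. Class A receptors have a collagen-like stalk. Msr1 encodes SR-A1, which takes up acetylated and oxidized low-density lipoprotein, and Marco encodes a related receptor for inhaled particles and bacteria that is typical of alveolar macrophages. Class B receptors span the membrane at both ends. Cd36 encodes a receptor for long-chain fatty acids, oxidized lipoprotein and thrombospondin, Scarb1 encodes SR-B1, which exchanges cholesterol with high-density lipoprotein, and Scarb2 encodes LIMP-2, a lysosomal membrane protein that carries the hydrolase glucocerebrosidase to lysosomes. Stab1 encodes stabilin-1, which clears matrix fragments and the protein SPARC and is found on sinusoidal endothelium and alternatively activated macrophages. Olr1 encodes LOX-1, a C-type lectin-like receptor for oxidized lipoprotein.

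All 7 genes lie on the minus strand of the mm10 genome in GENCODE vM21. Msr1 spans chr8:39581685-39642673 and Marco spans chr1:120474538-120505024. The class B genes are all on chromosome 5 but far apart, Cd36 at chr5:17781690-17888801, Scarb2 at chr5:92441314-92506833 and Scarb1 at chr5:125277087-125341094. Stab1 spans chr14:31139013-31168641 and Olr1 spans chr6:129485244-129507165. Stab1 overlaps Nt5dc2, a protein-coding gene on the other strand, and whether the counting used strand is not given in the sources used here, so reads of the pair may be shared. Scarb1 overlaps the unclassified transcript Gm42633 on its own strand, and Scarb2 overlaps the microRNA gene Mir6415.

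RefSeq promoters on GRCm38.p6, 250 bases before to 50 bases after the start, were available for 5 of the 7 genes. Those of Cd36 (chr5:17835847-17836146), Scarb2 (chr5:92505608-92505907) and Stab1 (chr14:31168592-31168891) are shown because these genes gave the lower, the higher and the tumor-associated values described below. All are read on the minus strand, and capitals mark CG dinucleotides. The Cd36 window lies inside the annotated gene, which begins upstream at 17888801 and has 6 annotated transcripts. It is therefore not the only annotated start of Cd36, and which start these cells use was not tested.
Cd36: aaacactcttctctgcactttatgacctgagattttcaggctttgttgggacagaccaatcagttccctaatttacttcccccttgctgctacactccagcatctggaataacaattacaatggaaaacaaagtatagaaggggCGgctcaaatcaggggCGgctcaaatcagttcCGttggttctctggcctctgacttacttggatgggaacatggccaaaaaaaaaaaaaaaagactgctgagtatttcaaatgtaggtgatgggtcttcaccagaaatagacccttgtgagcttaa
Scarb2: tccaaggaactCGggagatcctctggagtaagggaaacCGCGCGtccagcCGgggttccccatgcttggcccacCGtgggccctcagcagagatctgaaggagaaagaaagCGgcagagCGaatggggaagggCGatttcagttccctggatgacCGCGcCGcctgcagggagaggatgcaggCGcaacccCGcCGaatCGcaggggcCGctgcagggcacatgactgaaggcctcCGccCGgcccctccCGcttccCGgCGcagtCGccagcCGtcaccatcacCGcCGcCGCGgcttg
Stab1: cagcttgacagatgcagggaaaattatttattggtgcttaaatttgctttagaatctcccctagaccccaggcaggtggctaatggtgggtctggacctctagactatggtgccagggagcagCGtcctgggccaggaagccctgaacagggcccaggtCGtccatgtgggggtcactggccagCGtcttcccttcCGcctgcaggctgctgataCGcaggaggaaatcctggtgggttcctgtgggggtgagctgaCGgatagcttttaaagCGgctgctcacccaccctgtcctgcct
Cd36 holds 3 CG dinucleotides and 43.0% G or C, Scarb2 holds 28 and 67.3%, and Stab1 holds 7 and 57.3%, against a median of 7 and 52.7% over 27025 promoters. Motifs of 3 kinds were searched on both strands, CACGTG, an E-box found in 7.24% of these promoters, TGANTCA, the AP-1 motif found in 7.93%, and GAGGAA, a core of PU.1 sites found in 28.3%. CACGTG occurs in none of the 5 windows and TGANTCA in that of Olr1 only, at position -60. GAGGAA occurs in those of Stab1 at -30, Olr1 at -76 on the other strand, and Marco at -146. A match of letters is a description of the window and not a site.

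Library totals ran between 32308968 and 56904167 reads (median 40553019), with 12113 to 13209 genes detected. Levels below are CPM, read counts scaled to library size, after TMM scaling over all libraries. Itgax, the gene of CD11c, averaged 349.8 CPM in WT CD11c+ IM, 20.0 CPM in WT CD11c- IM, and 388 to 554 CPM in naive macrophages. Arg1 averaged 525 CPM in Arg1 CKO CD11c+ IM against 1480 CPM in WT CD11c+ IM, and 2271 CPM in Arg1 CKO CD11c- IM against 4478 CPM in WT CD11c- IM. These WT averages pool both chimeras. Tumor libraries labelled Il9r KO also averaged less Arg1, at 591 CPM in CD11c+ IM (775, 895 and 102 CPM) and 3067 CPM in CD11c- IM. WT libraries of the IL9R chimeras had 1060 and 1070 CPM in CD11c+ IM and 3405 and 4544 CPM in CD11c- IM. The naive library labelled Il9r KO had more Arg1, 285 CPM against 15.8 CPM in its WT library. Il9r goes against its labels, since reads were present in 7 of 7 libraries labelled Il9r KO and in 0 of 12 WT libraries. Some Arg1 CKO libraries had Il9r reads too, 61 in CD11c+ replicate 1 and 5 each in CD11c- replicate 3 and the naive library. CD11c+ IM libraries of 3 samples of the IL9R chimeras carried far more RNA of 12 alveolar macrophage markers, namely replicates 3 and 2 labelled Il9r KO, with summed levels of 11615 and 8287 CPM, and WT replicate 2, with 7152 CPM. The next highest CD11c+ IM library had 2218 CPM, and CD11c- IM ranged between 283 and 518 CPM. Results for CD11c+ IM are therefore also given without these 3 libraries, a choice made after the data were seen. The same replicate 3 had a summed level of 1044 CPM for B16 melanoma markers, against 56.3 to 101 CPM in WT CD11c+ IM.

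Expressed per kilobase of annotated exon, Cd36 had the highest level of the 7 genes in every population and Marco the lowest. The length used joins all annotated exons of a gene, 6344 bases for Msr1 and 3590 for Cd36, and not the transcript expressed. Before division by length, Msr1 averaged 795 CPM and Cd36 682 CPM in tumor CD11c- IM. In tumor CD11c+ IM they were level, at 428.6 and 427.5 CPM. In tumor CD11c+ IM, the mean per-length level was 119 ± 15.9 CPM per kb for Cd36 and 67.6 ± 7.86 CPM per kb for Msr1 (SD, n = 10). Stab1 and Scarb2 followed at 39.8 ± 9.25 and 35.6 ± 5.08 CPM per kb, values that lie within each other's spread. Scarb1 and Olr1 had 14.9 ± 3.76 and 10.8 ± 9.94 CPM per kb, again within the spread, and Marco had 2.15 ± 2.25 CPM per kb. In tumor CD11c- IM, the order was the same, with 189.9 ± 22.0 CPM per kb for Cd36, 125 ± 30.5 for Msr1, 51.0 ± 9.92 for Stab1 and 23.7 ± 1.84 for Scarb2 (SD, n = 11). The lower 3 genes there were Scarb1 at 13.3 ± 2.14, Olr1 at 7.74 ± 2.67 and Marco at 3.47 ± 3.37 CPM per kb. Naive macrophages differed in the middle of the order: Cd36 had 147 ± 12.6 CPM per kb, while Scarb2 at 32.3 ± 0.85 and Msr1 at 32.2 ± 1.63 CPM per kb were level with each other and above Stab1 at 13.7 ± 4.12 CPM per kb (SD, n = 4). Olr1 at 9.93 ± 4.14 and Scarb1 at 9.82 ± 2.26 CPM per kb came next in naive macrophages, and Marco had 2.41 ± 2.40 CPM per kb.

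**Figure D1:**
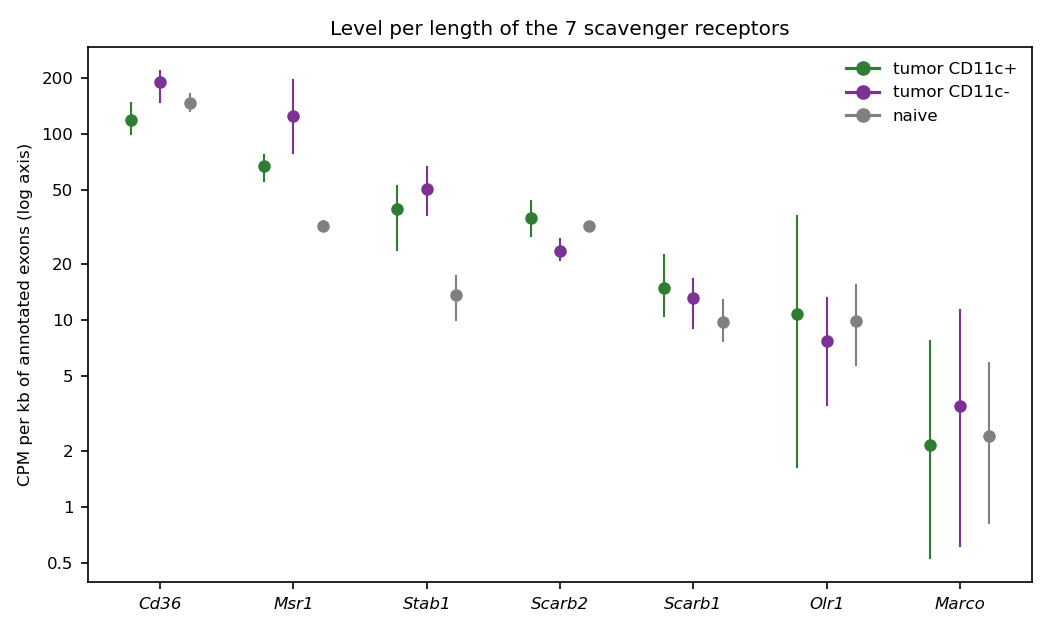
Mean per-length level of each scavenger receptor gene (CPM per kilobase of exon, log axis) by population, with bars from the lowest to the highest library. Cd36 is at the top and Marco at the bottom in CD11c+ IM, CD11c- IM and naive macrophages.

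**Figure D2:**
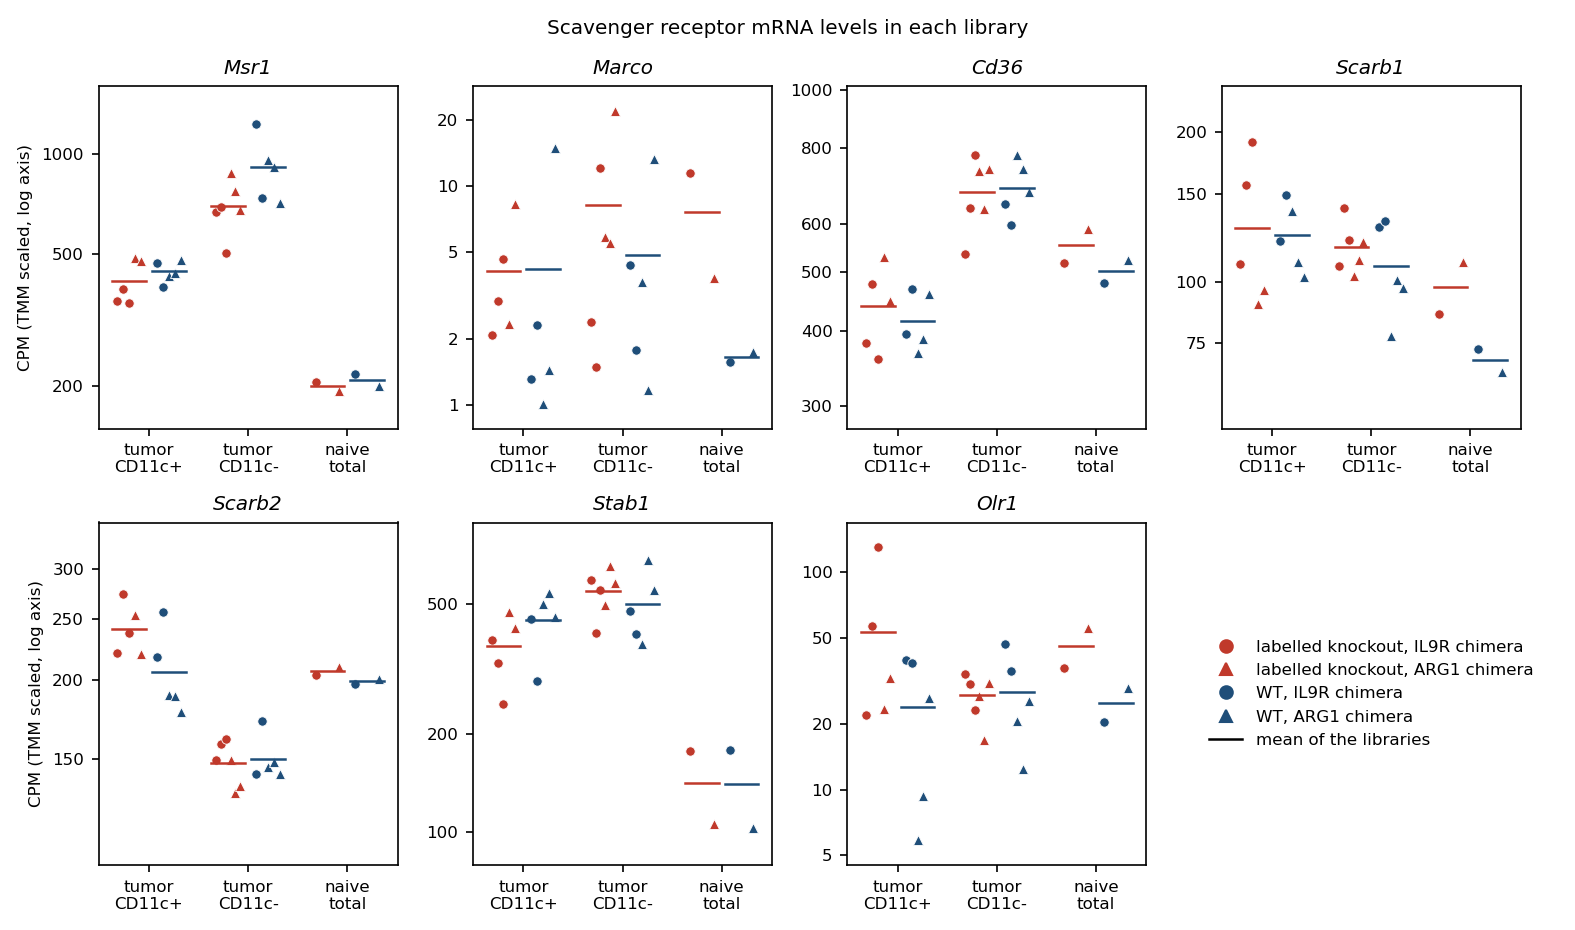
Level of each scavenger receptor gene in every library (CPM, log axis), with labelled knockout left of WT within CD11c+ IM, CD11c- IM and naive macrophages; circles are IL9R chimeras, triangles ARG1 chimeras, and bars group means. Msr1 and Stab1 are lowest in naive libraries, Msr1 and Cd36 are lower in CD11c+ IM than in CD11c- IM, and Scarb2 is higher there.

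The first comparison set CD11c+ IM against CD11c- IM in WT cells of tumor hosts, 5 libraries each, as the mean over the IL9R and ARG1 chimeras in a fit of all 21 tumor libraries. Of the 7 receptors, Scarb2 was higher in CD11c+ IM, Msr1 and Cd36 were lower, and 4 did not pass the test. By edgeR's quasi-likelihood test at a Benjamini-Hochberg adjusted p under 0.05, 11.5% of all 13434 genes tested were called, 5.44% as higher and 6.1% as lower in CD11c+ IM. The median log2 difference was -0.29 over the 7 receptors and 0.00 over all genes.

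Among class A receptors, Msr1 had 470.0 and 398 CPM in WT CD11c+ IM of the IL9R chimeras and 429, 437 and 481 CPM in those of the ARG1 chimeras. WT CD11c- IM had 1232 and 738 CPM in the IL9R chimeras and 957, 914 and 714 CPM in the ARG1 chimeras. The groups did not overlap, and the highest CD11c- IM library was WT replicate 1 of the IL9R chimeras. Msr1 averaged 443 ± 33.3 CPM in CD11c+ IM and 911 ± 209 CPM in CD11c- IM (SD, n = 5 each), a log2 difference of -1.07 (SE 0.15, 95% interval -1.36 to -0.79, edgeR adjusted p = 0.000101) and 2.10-fold lower in CD11c+ IM. Within the chimeras taken singly, the log2 difference was -1.14 in WT cells of the IL9R chimeras and -0.93 in those of the ARG1 chimeras. Marco was close to the bottom of the measured range, with 1.32 and 2.33 CPM in WT CD11c+ IM of the IL9R chimeras and 1.02, 1.46 and 14.9 CPM in those of the ARG1 chimeras. WT CD11c- IM had 4.35 and 1.79 CPM in the IL9R chimeras and 3.65, 1.18 and 13.2 CPM in the ARG1 chimeras. The Marco groups overlapped throughout, and WT replicate 3 of the ARG1 chimeras was the highest in both subsets. The log2 difference for Marco was -0.42 (SE 0.78, edgeR adjusted p = 0.807).

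Among class B receptors, Cd36 had 395 and 469 CPM in WT CD11c+ IM of the IL9R chimeras and 367, 388 and 459 CPM in those of the ARG1 chimeras. WT CD11c- IM had 647 and 597 CPM in the IL9R chimeras and 779.6, 740.2 and 678 CPM in the ARG1 chimeras. Every CD11c+ IM library lay below every CD11c- IM library. The means were 416 ± 45.5 CPM in CD11c+ IM and 689 ± 72.6 CPM in CD11c- IM (SD, n = 5 each), 1.63-fold lower in CD11c+ IM (log2 difference -0.70, SE 0.13, edgeR adjusted p = 0.0012). Scarb2 went the other way, with 218 and 256 CPM in WT CD11c+ IM of the IL9R chimeras and 189, 189 and 178 CPM in those of the ARG1 chimeras. WT CD11c- IM had 142 and 172 CPM in the IL9R chimeras and 145, 148 and 142 CPM in the ARG1 chimeras. The Scarb2 groups came close but did not overlap, the lowest CD11c+ IM library at 178 CPM standing above the highest CD11c- IM library at 172 CPM. Scarb2 averaged 206 ± 31.7 CPM in CD11c+ IM and 149.8 ± 12.7 CPM in CD11c- IM, 1.38-fold higher in CD11c+ IM (log2 difference 0.46, SE 0.10, edgeR adjusted p = 0.0053). Scarb1 had 121 and 149 CPM in WT CD11c+ IM of the IL9R chimeras and 139, 109 and 102 CPM in those of the ARG1 chimeras, against 129 and 132 CPM and 77.5, 101 and 96.9 CPM in WT CD11c- IM of the same chimeras. It averaged 124 ± 19.8 CPM in CD11c+ IM and 107 ± 23.0 CPM in CD11c- IM, with overlapping groups and a log2 difference of 0.19 (SE 0.15, edgeR adjusted p = 0.455).

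Neither receptor outside classes A and B passed the test in this comparison. Stab1 had 449 and 289.7 CPM in WT CD11c+ IM of the IL9R chimeras and 501, 542 and 455 CPM in those of the ARG1 chimeras, against 477 and 403 CPM and 377, 683 and 550.1 CPM in WT CD11c- IM of the same chimeras. The groups overlapped, with means of 447 ± 95.8 CPM in WT CD11c+ IM and 498 ± 123 CPM in WT CD11c- IM (log2 difference -0.19, SE 0.17, edgeR adjusted p = 0.553). Olr1 had 39.6 and 38.4 CPM in WT CD11c+ IM of the IL9R chimeras but 5.87, 9.38 and 26.6 CPM in those of the ARG1 chimeras. WT CD11c- IM had 47.0 and 35.1 CPM in the IL9R chimeras and 20.7, 12.5 and 25.6 CPM in the ARG1 chimeras. In both subsets the IL9R-chimera libraries were the higher ones, and the subsets overlapped. The log2 difference for Olr1 was -0.29 (SE 0.40, edgeR adjusted p = 0.717).

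Groups that do not overlap were found for these 3 receptors in WT cells, where 8.61% of all genes had such groups, and for the same 3 over all 21 tumor libraries of any genotype, where 2.65% of all genes did. Over those 21 libraries the lowest, median and highest Msr1 levels were 355, 433 and 487 CPM in CD11c+ IM and 504, 738 and 1232 CPM in CD11c- IM. The corresponding Cd36 levels were 359, 421 and 529.7 CPM in CD11c+ IM and 536, 678 and 779.6 CPM in CD11c- IM. Scarb2 levels were 178, 220.4 and 274 CPM in CD11c+ IM and 132, 148 and 172 CPM in CD11c- IM. The gap between the nearest libraries of the subsets was narrow for all 3 genes. There were 10 sets of a CD11c+ and a CD11c- library with one label number within a chimera and genotype. Stab1 was lower in 9 of 10 and Scarb1 higher in 7 of 10, while Marco and Olr1 were higher in 5 of 10 each. The share of all genes with such counts is not given here. The numbers did not pair the libraries of Arg1 CKO cells, whose deviations had a correlation r of -0.13 and -0.15. In WT cells of the ARG1 chimeras r was 0.35, 0.31 and 0.045, so the pairing there is uncertain.

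**Figure D3:**
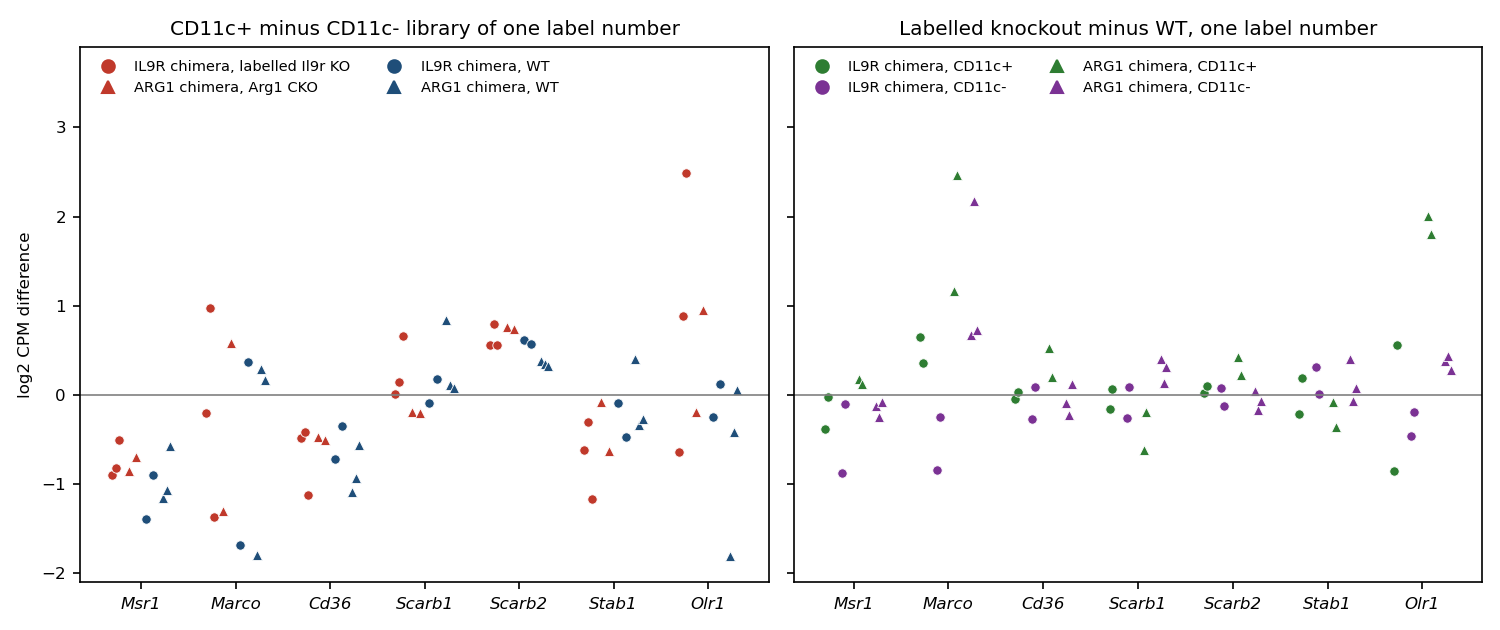
Differences in log2 CPM between libraries of one label number, for CD11c+ IM minus CD11c- IM (left) and labelled knockout minus WT (right), by gene and by chimera. On the left the points lie below 0 for Msr1 and Cd36 and above 0 for Scarb2, as groups without overlap must. On the right only Msr1 in the IL9R chimeras and Marco and Olr1 in the ARG1 chimeras have every point on one side. For Msr1 this too follows from groups without overlap.

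Markers of other cell types moved with the subset, where 5.44% of all genes were called higher and 6.1% lower in WT CD11c+ IM. Of 12 alveolar macrophage markers, 7 were called higher in WT CD11c+ IM and none lower, and their summed level ran between 558 and 7152 CPM in WT CD11c+ IM and between 288 and 496 CPM in WT CD11c- IM. Of 6 dendritic cell markers, 2 were called higher, with sums of 111 to 230.1 CPM in CD11c+ IM and 2.56 to 32.8 CPM in CD11c- IM. Of 6 platelet markers, 2 were called lower, with sums of 401 to 1270 CPM in CD11c+ IM and 738 to 2143 CPM in CD11c- IM. Platelets themselves carry CD36. No marker of these lists was at 0 in every library of a population. Without the 3 libraries rich in alveolar marker RNA, WT differences were close to those above, at -0.997 for Msr1 (edgeR adjusted p = 0.00274), -0.75 for Cd36 (adjusted p = 0.00541) and 0.42 for Scarb2 (adjusted p = 0.0387). The part of the dendritic and platelet markers in these differences was not tested.

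In the libraries labelled Il9r KO, the same comparison of CD11c+ IM with CD11c- IM called the same 3 receptors, against 5.94% of all genes, 2.8% as higher and 3.14% as lower. The median log2 difference was -0.68 over the 7 receptors and 0.03 over all genes. Msr1 had 361, 391.7 and 355 CPM in CD11c+ IM and 671, 691 and 504 CPM in CD11c- IM, a log2 difference of -0.76 (SE 0.18, edgeR adjusted p = 0.0157). Cd36 had 382, 478 and 359 CPM in CD11c+ IM and 536, 637 and 779 CPM in CD11c- IM, a log2 difference of -0.68 (SE 0.16, edgeR adjusted p = 0.0129). Scarb2 had 220.4, 274 and 238 CPM in CD11c+ IM and 149, 158 and 161 CPM in CD11c- IM, a log2 difference of 0.64 (SE 0.13, edgeR adjusted p = 0.00424). None of these groups overlapped, which was so for 22.6% of all genes in this comparison. Stab1 had 389, 330.2 and 246 CPM in CD11c+ IM and 594, 407 and 550.2 CPM in CD11c- IM, also without overlap. Its log2 difference of -0.69 (SE 0.22) had an edgeR adjusted p of 0.0726, and one of 0.0425 with the replicate number as a block. Olr1 had 22.0, 56.5 and 130.4 CPM in CD11c+ IM and 34.2, 30.7 and 23.2 CPM in CD11c- IM, so its groups overlapped, and the highest value came from replicate 3, the library with the most alveolar and B16 marker RNA (log2 difference 1.24, SE 0.51, edgeR adjusted p = 0.192).

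These calls rested on few libraries. Without the 3 libraries rich in alveolar marker RNA, which leaves 1 CD11c+ IM library labelled Il9r KO that is assumed to vary like the others, the differences were -0.79 for Msr1 (edgeR adjusted p = 0.289), -0.78 for Cd36 (adjusted p = 0.186) and 0.49 for Scarb2 (adjusted p = 0.324). Stab1 and Olr1 were then both at -0.42, so the sign for Olr1 turned. The Msr1 call was also lost without CD11c- replicate 1 (edgeR adjusted p = 0.0677), CD11c- replicate 2 (adjusted p = 0.0811) or CD11c+ replicate 3 (adjusted p = 0.0613), and the Cd36 call without CD11c- replicate 3 (adjusted p = 0.0766) or CD11c+ replicate 3 (adjusted p = 0.0693).

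In Arg1 CKO cells the comparison of CD11c+ IM with CD11c- IM called 1 receptor, Scarb2, against 2.89% of all genes, 1.64% as higher and 1.25% as lower, and the median log2 difference was -0.36 over the 7 receptors and 0.00 over all genes. Scarb2 had 254 and 220.3 CPM in CD11c+ IM and 149, 132 and 136 CPM in CD11c- IM, with no overlap and a log2 difference of 0.77 (SE 0.14, edgeR adjusted p = 0.00457). Without CD11c+ replicate 1 the call was lost (log2 difference 0.67, edgeR adjusted p = 0.135). Msr1 had 487 and 476 CPM in CD11c+ IM and 878, 771 and 677 CPM in CD11c- IM, a log2 difference of -0.68 (SE 0.21, edgeR adjusted p = 0.0876). Cd36 had 529.7 and 447 CPM in CD11c+ IM and 733, 634 and 739 CPM in CD11c- IM, a log2 difference of -0.52 (SE 0.18, edgeR adjusted p = 0.142). Neither group pair overlapped, which was so for 38.3% of all genes in this comparison, and with only these 5 libraries in the fit both passed, Msr1 at an edgeR adjusted p of 0.0185 and Cd36 at one of 0.0429. Scarb1 (90.1 and 96.0 CPM against 102, 111 and 120 CPM) was also lower in CD11c+ IM without overlap. So was Stab1 (473 and 422 CPM against 498, 654 and 580 CPM), and neither of these was called. An edgeR interaction test of whether the difference between the subsets differs between labelled knockout and WT cells called 0 of the 7 receptors. At an unadjusted p under 0.05 it gave 0 receptors for Il9r and 2 for Arg1, Scarb2 (log2 difference 0.42, unadjusted p = 0.0405) and Scarb1 (-0.60, unadjusted p = 0.0447). Over all genes it called 0 for either label, with 740 genes for Il9r and 519 for Arg1 at an unadjusted p under 0.05, and 7 and 18 genes by DESeq2.

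The second comparison set tumor CD11c- IM and tumor CD11c+ IM each against naive total macrophages, within WT cells and with the chimera as a covariate. Msr1, Stab1 and Scarb1 were higher in both tumor subsets than in naive macrophages, and the other 4 receptors did not pass the test in either. Both comparisons use the same 2 naive WT libraries, and naive macrophages were not split by CD11c. In each comparison 23.2% of the 13170 genes tested were called, 13% as higher and 10.2% as lower in CD11c- IM, and 13.7% as higher and 9.54% as lower in CD11c+ IM. The median log2 difference over the 7 receptors was 0.67 for CD11c- IM and 0.90 for CD11c+ IM, against -0.03 and -0.02 over all genes.

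**Figure D4:**
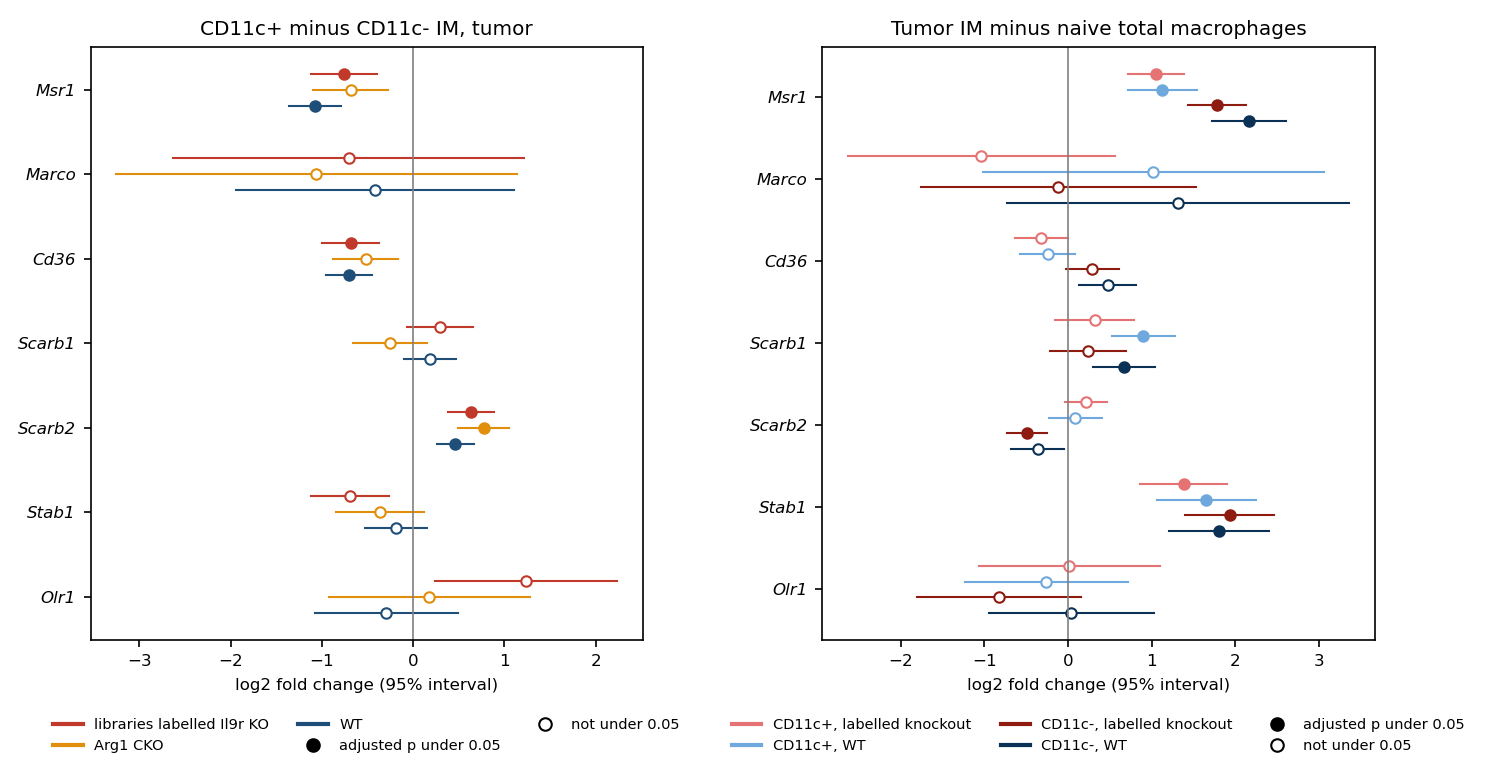
Log2 differences with 95% intervals for the 7 receptors, for CD11c+ IM minus CD11c- IM (left) and for each tumor subset minus naive macrophages (right), filled where the edgeR adjusted p was under 0.05. Msr1 and Stab1 are filled in all 4 tumor-against-naive comparisons, and Scarb2 in all 3 subset comparisons.

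Of the class A receptors, Msr1 had at least 714 CPM in WT tumor CD11c- IM and at least 398 CPM in WT tumor CD11c+ IM, against 218 and 199.98 CPM in naive WT macrophages. Every tumor library of either subset was above both naive ones. Means were 911 ± 209 CPM in tumor CD11c- IM, 443 ± 33.3 CPM in tumor CD11c+ IM (SD, n = 5 each), and 209 CPM in naive macrophages. Msr1 was thus 4.46-fold higher in CD11c- IM than in naive macrophages (log2 difference 2.16, SE 0.23, edgeR adjusted p = 1.57e-05) and 2.18-fold higher in CD11c+ IM (log2 difference 1.13, SE 0.21, edgeR adjusted p = 0.00198). Marco ran between 1.02 and 14.9 CPM in WT tumor libraries, against 1.57 and 1.74 CPM in naive WT macrophages, so the groups overlapped. Its log2 differences of 1.32 in CD11c- IM (SE 1.04, edgeR adjusted p = 0.397) and 1.02 in CD11c+ IM did not pass.

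Stab1 had at least 377 CPM in WT tumor CD11c- IM and at least 289.7 CPM in WT tumor CD11c+ IM, against 178 and 103 CPM in naive WT macrophages, again without overlap. It was 3.50-fold higher in WT CD11c- IM (log2 difference 1.81, SE 0.30, edgeR adjusted p = 0.00069) and 3.14-fold higher in WT CD11c+ IM (log2 difference 1.65, SE 0.30, edgeR adjusted p = 0.00167). Without the naive WT library of the ARG1 chimeras the CD11c+ call was lost (log2 difference 1.13, edgeR adjusted p = 0.0522). Nt5dc2, the gene that overlaps Stab1 on the other strand, was higher as well, by a log2 difference of 3.16 (SE 0.29, edgeR adjusted p = 7.1e-06) in CD11c- IM and 2.84 (SE 0.29, edgeR adjusted p = 3.9e-05) in CD11c+ IM. Its mean level was 117 CPM in tumor CD11c+ IM, 165 CPM in tumor CD11c- IM and 22.4 CPM in naive macrophages, below that of Stab1 in each, and how reads of the overlap were assigned was not tested.

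Among class B receptors, Scarb1 had at least 77.5 CPM in WT tumor CD11c- IM and at least 102 CPM in WT tumor CD11c+ IM, against 73.0 and 65.7 CPM in naive WT macrophages. The groups did not overlap, but the lowest CD11c- IM library came close to the naive ones. Scarb1 was 1.59-fold higher in CD11c- IM (log2 difference 0.67, SE 0.19, edgeR adjusted p = 0.0182) and 1.87-fold higher in CD11c+ IM (log2 difference 0.90, SE 0.19, edgeR adjusted p = 0.00411). These calls depended on the naive libraries and the scaling. In CD11c- IM the call was lost without the naive WT library of the ARG1 chimeras (edgeR adjusted p = 0.0835) or of the IL9R chimeras (log2 difference 0.57, adjusted p = 0.187), and without TMM scaling (log2 difference 0.44, adjusted p = 0.0817). In CD11c+ IM the call was lost without the naive WT library of the IL9R chimeras (log2 difference 0.79, edgeR adjusted p = 0.0796).

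Cd36 ran between 597 and 779.6 CPM in WT tumor CD11c- IM and between 367 and 469 CPM in WT tumor CD11c+ IM, against 480.3 and 523 CPM in naive WT macrophages. The CD11c- IM libraries were thus all above and the CD11c+ IM libraries all below the naive ones. Neither difference from naive passed, at a log2 difference of 0.48 for CD11c- IM (SE 0.17, edgeR adjusted p = 0.0607) and -0.24 for CD11c+ IM (SE 0.17, edgeR adjusted p = 0.323). The CD11c- IM difference passed by DESeq2 (adjusted p = 0.0207) and without WT replicate 1 of ARG1-chimera CD11c+ IM, which shares the fit (edgeR adjusted p = 0.0316). Without scaling the CD11c+ difference was -0.51 (edgeR adjusted p = 0.0367). Scarb2 ran between 142 and 172 CPM in WT tumor CD11c- IM and between 178 and 256 CPM in WT tumor CD11c+ IM, against 197 and 201 CPM in naive WT macrophages. CD11c- IM lay below the naive libraries (log2 difference -0.36, SE 0.16, edgeR adjusted p = 0.116) and CD11c+ IM on both sides of them (log2 difference 0.09). Without scaling the CD11c- difference was -0.60 (edgeR adjusted p = 0.00962). Olr1 had log2 differences of 0.04 for CD11c- IM and -0.26 for CD11c+ IM, and its tumor range of 5.87 to 47.0 CPM spanned the naive WT levels of 20.5 and 29.5 CPM.

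TMM scaling mattered for these comparisons. Without it the median of all genes moved by -0.24 for WT CD11c- IM and -0.27 for WT CD11c+ IM on the log2 scale, and calls that were higher in tumor made up 36.5% in place of 56.0% for CD11c- IM and 35.2% in place of 58.9% for CD11c+ IM. Msr1 and Stab1 stayed called and higher without scaling. Groups that do not overlap with naive were found in WT cells for 5 of the 7 receptors with CD11c- IM, where 39.2% of all genes had such groups, and for 4 with CD11c+ IM, where 39.1% did. They were found, over all libraries of any genotype, for Msr1, Stab1 and Scarb2 with CD11c- IM, where 20.8% of all genes had such groups, and for Msr1 and Stab1 with CD11c+ IM, where 11.4% did.

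In the libraries labelled Il9r KO and Arg1 CKO, called labelled knockouts and fitted with the 2 naive libraries of these labels, Msr1 and Stab1 were again higher in tumor. Msr1 had 504 to 878 CPM in labelled knockout CD11c- IM and 355 to 487 CPM in labelled knockout CD11c+ IM, against 206 and 194 CPM in naive macrophages labelled Il9r KO and of Arg1 CKO cells. Msr1 was 3.44-fold higher in labelled knockout CD11c- IM (log2 difference 1.78, SE 0.17, edgeR adjusted p = 4.27e-05), where 23% of all genes were called, 11.3% as higher and 11.7% as lower. Stab1 had 407 to 654 CPM in labelled knockout CD11c- IM and 246 to 473 CPM in labelled knockout CD11c+ IM, against 177 and 106 CPM in the same naive libraries. It was 3.81-fold higher in labelled knockout CD11c- IM (log2 difference 1.93, SE 0.27, edgeR adjusted p = 0.000443). Scarb2 was lower there (log2 difference -0.49, SE 0.12, edgeR adjusted p = 0.0111), a call lost without the naive Arg1 CKO library (log2 difference -0.38, adjusted p = 0.27). Scarb1 had 102 to 141 CPM in labelled knockout CD11c- IM against 85.9 and 109 CPM in the same naive libraries, overlapping, with a log2 difference of 0.24. In labelled knockout CD11c+ IM, where 5.71% of all genes were called, 3.02% as higher and 2.7% as lower, Msr1 was 2.08-fold higher (log2 difference 1.05, SE 0.17, edgeR adjusted p = 0.00714) and Stab1 2.61-fold higher (log2 difference 1.38, SE 0.27, edgeR adjusted p = 0.0139). Without the naive Arg1 CKO library both calls were lost, with Msr1 at 0.88 (edgeR adjusted p = 0.189) and Stab1 at 0.96 (adjusted p = 0.267), and 3 genes remained called in all.

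Marker lists differed between tumor and naive libraries too. Of all genes 13% were called higher and 10.2% lower in WT CD11c- IM, and 13.7% and 9.54% in WT CD11c+ IM. B16 melanoma markers were called higher in both WT tumor subsets, 6 of the list in each, and 2 of 6 platelet markers were higher in each, with sums of 738 to 2143 CPM in WT CD11c- IM, 401 to 1270 CPM in WT CD11c+ IM and 75.1 to 169.9 CPM in naive WT macrophages. Alveolar macrophage markers were called lower for 8 of 12 in WT CD11c- IM, and their summed level in naive macrophages was 2280 CPM in the library labelled Il9r KO and 5542 CPM in Arg1 CKO cells against 438 to 1046 CPM in WT cells. Of 8 endothelial markers, a cell type that also carries Stab1, 1 was called higher and 1 lower in each WT subset. Their sums were 20.9 to 51.4 CPM in WT CD11c- IM, 23.9 to 67.6 CPM in WT CD11c+ IM and 62.1 to 91.2 CPM in naive WT macrophages. Without the 3 libraries rich in alveolar marker RNA the WT CD11c+ IM differences from naive were 1.19 for Msr1 (edgeR adjusted p = 0.00324), 1.81 for Stab1 (adjusted p = 0.00152) and 0.87 for Scarb1 (adjusted p = 0.0106). The part of platelet, endothelial and B16 RNA in the receptor differences was not tested.

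The third comparison set libraries labelled Il9r KO and Arg1 CKO libraries against WT libraries of the same chimera in tumor hosts. By edgeR, 0 of the 7 receptors passed the test for either label, in CD11c+ IM, in CD11c- IM, or over both, and DESeq2 called 0 as well. Over both subsets 1 receptor for Il9r, Msr1, and 0 for Arg1 had an unadjusted p under 0.05. At an adjusted p under 0.05, 0.0521% of all genes were called for Il9r over both subsets, which is 7 genes, with 562 genes at an unadjusted p under 0.05 and 53 called by DESeq2. For Arg1 over both subsets 0.0372% were called, which is 5 genes, with 519 at an unadjusted p under 0.05 and 25 by DESeq2. Within the subsets the shares were 0.0298% in CD11c+ IM and 0.0223% in CD11c- IM for Il9r, and 0.0447% in CD11c+ IM and 0.00744% in CD11c- IM for Arg1.

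In the IL9R chimeras, Msr1 had the receptor difference with the smallest p. CD11c- IM had 671, 691 and 504 CPM in the libraries labelled Il9r KO and 1232 and 738 CPM in WT libraries. CD11c+ IM had 361, 391.7 and 355 CPM in the libraries labelled Il9r KO and 470.0 and 398 CPM in WT libraries. Within each subset the groups did not overlap, which was so for 14.6% of all genes in CD11c+ IM and 19.7% in CD11c- IM. As groups without overlap must be, Msr1 was lower in 4 of 4 libraries set beside the WT library of the same number, by -0.88 to -0.02. Over both subsets the log2 difference was -0.45 (SE 0.14, unadjusted p = 0.0056, edgeR adjusted p = 1). In CD11c- IM alone it was -0.67 (SE 0.20, edgeR adjusted p = 0.777). Without WT replicate 2 it was -0.99 (edgeR adjusted p = 0.0479), which leaves as the WT library only replicate 1, the one with the highest Msr1 level, assumed to vary like the other groups. In CD11c+ IM alone it was -0.22 (SE 0.20, edgeR adjusted p = 1). The other receptors were within 0.05 of 0 over both subsets, except Marco at 0.81 and Olr1 at 0.18. These averages can hide opposite signs. Olr1 was lower without overlap in CD11c- IM, at 34.2, 30.7 and 23.2 CPM in libraries labelled Il9r KO against 47.0 and 35.1 CPM in WT. Stab1, with overlap in both subsets, averaged 517 CPM against 440 CPM in CD11c- IM and 322 CPM against 369 CPM in CD11c+ IM, labelled Il9r KO before WT. In CD11c+ IM alone Olr1 was at 0.84 (SE 0.58), and at -0.85 without the 3 libraries rich in alveolar marker RNA.

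In the ARG1 chimeras neither Olr1 nor Marco passed the test, though both were higher in Arg1 CKO cells in all 5 libraries set beside the WT library of the same number. In CD11c+ IM those numbers do not pair the libraries. Sample numbers skip from 25, the last Arg1 CKO CD11c- IM library, to 27 and 28 in Arg1 CKO CD11c+ IM. Which WT CD11c+ IM library each of these matches is therefore uncertain, and WT replicate 3 was set beside neither. Beside that replicate, Marco would be lower in both. The share of all genes higher in all 5 is not given here. Olr1 had 23.6 and 32.8 CPM in Arg1 CKO CD11c+ IM and 5.87, 9.38 and 26.6 CPM in WT CD11c+ IM, so the groups overlapped. CD11c- IM had 27.0, 17.0 and 31.1 CPM in Arg1 CKO cells and 20.7, 12.5 and 25.6 CPM in WT cells, also overlapping. Over both subsets the log2 difference of Olr1 was 0.68 (SE 0.38, unadjusted p = 0.0872, edgeR adjusted p = 1), and the 5 single differences ran between 0.28 and 2.00. Marco had 2.35 and 8.30 CPM in Arg1 CKO CD11c+ IM and 1.02, 1.46 and 14.9 CPM in WT CD11c+ IM, and 5.86, 5.52 and 22.0 CPM in Arg1 CKO CD11c- IM against 3.65, 1.18 and 13.2 CPM in WT CD11c- IM. Replicate 3 was the highest Marco library in every group that had one, and the single differences ran between 0.68 and 2.47, while the fitted log2 difference was 0.38 over both subsets and -0.12 in CD11c+ IM, where WT replicate 3 enters. Scarb2 was 0.35 higher in Arg1 CKO CD11c+ IM on the log2 scale (SE 0.14, unadjusted p = 0.0229, edgeR adjusted p = 0.775).

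In naive macrophages each labelled knockout has 1 library, so the values stand without a test. Marco had 11.4 CPM in the library labelled Il9r KO against 1.57 CPM in its WT library, and 3.83 CPM in Arg1 CKO cells against 1.74 CPM in WT cells. Olr1 had 36.4 CPM against 20.5 CPM in the IL9R chimera and 55.4 CPM against 29.5 CPM in the ARG1 chimera, labelled knockout before WT. Scarb1 had 85.9 CPM against 73.0 CPM and 109 CPM against 65.7 CPM in the same order. All 3 were higher in the labelled knockout library of both chimeras, and the alveolar marker sums given above were higher in the same libraries. A change of over 2-fold between such a pair was seen in 20.6% of all genes in the IL9R chimera and 9.4% in the ARG1 chimera.

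**Figure D5:**
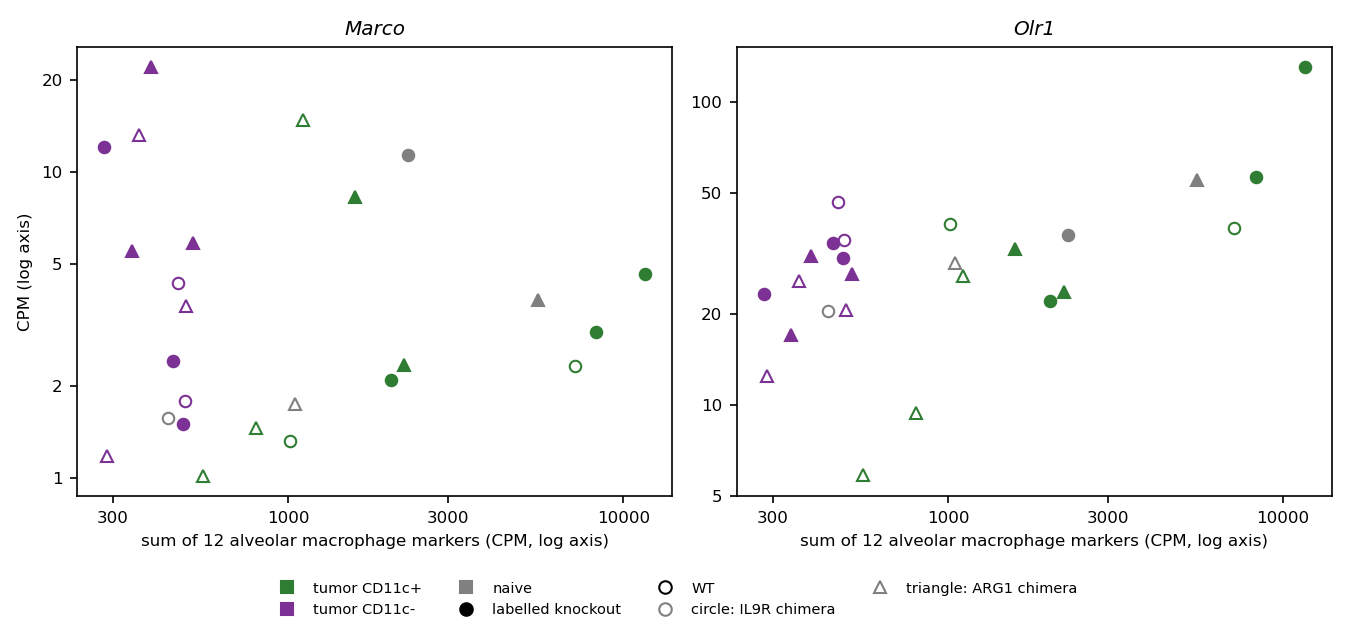
Levels of Marco and Olr1 (CPM) against the summed level of 12 alveolar macrophage markers (CPM) in every library, both axes logarithmic, with filled points for labelled knockout and open points for WT. The library with the highest marker sum, replicate 3 of CD11c+ IM labelled Il9r KO, has the highest Olr1 level, 130.4 CPM, but a Marco level of 4.65 CPM.

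The WT cells of the 2 chimeras were also set against each other. No receptor and no gene was called by edgeR, with 1303 genes in CD11c+ IM and 1201 in CD11c- IM at an unadjusted p under 0.05, and 64 and 68 by DESeq2. Olr1 was 1.47 higher in WT CD11c+ IM of the IL9R chimeras on the log2 scale (SE 0.56, edgeR adjusted p = 0.484) and 1.07 higher in WT CD11c- IM (SE 0.56). Scarb1 was 0.51 higher in WT CD11c- IM of the IL9R chimeras (SE 0.20, edgeR adjusted p = 0.483).

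Receptors varied together in part. Over the 25 libraries, which share the populations described above, the log2 levels of Msr1 and Stab1 had a correlation of 0.82 and those of Msr1 and Cd36 one of 0.54. Scarb2 ran opposite to Cd36 at -0.71 and to Msr1 at -0.68. Among 8924 genes, the closest to Msr1 were Hpse, the heparanase gene, Eif4e and Tpd52, each at 0.96. Those closest to Scarb2 were Creg1, which encodes a lysosomal glycoprotein, and Il11ra1, each at 0.94, and Stra6l at 0.93. Stab1 was closest to Nxpe5 at 0.95, P4ha2, a collagen prolyl hydroxylase subunit, at 0.94 and Marcks at 0.94, and Cd36 to Mpp1 at 0.89, Serpinb8 at 0.86 and Pid1 at 0.84. Scarb1 (Ncln 0.79, Slc6a6 0.77, Vti1a 0.76), Olr1 (Trp53inp2 0.82, Gcnt2 0.81, Nucb2 0.79) and Marco (Dnajb9 0.71, Snx27 0.67, Slpi 0.61) had weaker partners. That order holds over the populations and changed for deviations from group means over the 21 tumor libraries. Marco and Dnajb9 then had 0.92, Msr1 and Hpse 0.78, Scarb2 and Stra6l 0.30, and Cd36 and Pid1 0.13.

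Other scavenger receptors went both ways between the subsets. Of 17 measured, 4 were called higher and 3 lower in WT CD11c+ IM than in CD11c- IM, against 5.44% and 6.1% of all genes. The median log2 difference was 0.56 against 0.00 over all genes. Scarf1, which binds acetylated lipoprotein, averaged 14.2 CPM in CD11c+ IM and 42.7 CPM in CD11c- IM (log2 difference -1.66, SE 0.19, edgeR adjusted p = 1.95e-05). Cd5l, a secreted member of the cysteine-rich scavenger family, averaged 64.3 CPM in CD11c+ IM and 346 CPM in CD11c- IM (log2 difference -2.77, SE 0.42, edgeR adjusted p = 0.000311). Axl, a receptor kinase that binds apoptotic cells through Gas6, was higher in CD11c+ IM by 1.26 (SE 0.21, edgeR adjusted p = 0.000611), as was Cxcl16, a membrane chemokine that binds oxidized lipoprotein, by 0.97 (SE 0.17, adjusted p = 0.000706). Clec7a (1.34) and Lgals3 (0.65) were the other higher members. Against naive macrophages, 5 of 17 were higher and 5 lower in WT CD11c- IM, led by Axl at -1.97 and Cd5l at 6.01 on the log2 scale. Of all genes 13% were higher and 10.2% lower there. In WT CD11c+ IM 5 were higher and 2 lower, led by Cd5l at 3.40 and Cd68 at 0.99, against 13.7% and 9.54% of all genes. In the libraries labelled Il9r KO 2 of 17 were higher and 3 lower in CD11c+ IM than in CD11c- IM, against 2.8% and 3.14% of all genes. In Arg1 CKO cells 3 were higher and 2 lower, against 1.64% and 1.25%.

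Of 21 genes of lipid uptake, storage and efflux, 8 were called higher, 1 lower and 12 neither in WT CD11c+ IM against WT CD11c- IM, where 5.44% of all genes were called higher and 6.1% lower, with a median log2 difference of 0.42 against 0.00 over all genes. Gpnmb, a glycoprotein of lipid-laden macrophages, averaged 3405 CPM in CD11c+ IM and 620.0 CPM in CD11c- IM (log2 difference 2.46, SE 0.29, edgeR adjusted p = 2.68e-05), and the fatty acid carrier Fabp5 averaged 1313 CPM and 512 CPM in the same order (1.45, SE 0.19, adjusted p = 7.74e-05). The sterol exporter Abcg1 (0.98), Fabp4 (1.75), the lipid-sensing receptor Trem2 (0.88) and the lysosomal acid lipase Lipa (0.72) were also higher. Against naive macrophages 10 of the 21 were higher and 2 lower in WT CD11c+ IM, among them Fabp5 at 2.85. In WT CD11c- IM 5 were higher and 3 lower, among them Plin2, a lipid droplet coat protein, at 1.23. Of all genes 13.7% were higher and 9.54% lower in WT CD11c+ IM, and 13% and 10.2% in WT CD11c- IM. In the libraries labelled Il9r KO 8 of the 21 were higher in CD11c+ IM than in CD11c- IM and none lower, against 2.8% and 3.14% of all genes. In Arg1 CKO cells 3 were higher and none lower, against 1.64% and 1.25%.

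Of 9 genes of lysosomal membrane and hydrolase trafficking, the setting of Scarb2, 2 were higher and 1 lower in WT CD11c+ IM than in CD11c- IM. Their median was 0.14. In this comparison 5.44% of all genes were called higher and 6.1% lower. Cd63, a lysosomal tetraspanin, averaged 1776 CPM in CD11c+ IM and 677 CPM in CD11c- IM (log2 difference 1.41, SE 0.13, edgeR adjusted p = 3.2e-06). The lysosomal transcription factors were split, Tfeb at 0.45 and Tfe3 at -0.54. Of 12 signalling partners of CD36 and related receptors, 2 were higher and 3 lower, with a median of -0.17, among them the kinase Src at 2.13 (SE 0.39, edgeR adjusted p = 0.00132), the exchange factor Vav3 at -0.88 (SE 0.15, adjusted p = 0.000878) and the co-receptor Tlr4 at -1.03 (SE 0.22, adjusted p = 0.00416). Against naive macrophages, Src was lower in WT CD11c- IM by a log2 difference of -3.19 (SE 0.40, edgeR adjusted p = 6.32e-05).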

How the data were processed

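RNA was taken with a QIAGEN micro kit and made into SMART-seq v4 and Nextera XT libraries, per the labels' protocols. The authors deposited raw counts per gene; per the submitters' processing notes the tools were FastQC 0.11.5, STAR 2.7.10a and featureCounts of Subread 2.0.3 on mm10. Annotation, strand setting, multimapping and gene filter are not given in the sources used here. Identifiers and symbols in the table agree for 271 of 12266 genes (2.21%), so genes were taken by symbol.

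Counts were fitted with edgeR 4.0.16 in R 4.3.3 (TMM, filterByExpr, robust quasi-likelihood) in 3 fits, and p-values were Benjamini-Hochberg adjusted over all genes, called under 0.05. The fit of 21 tumor libraries in 8 groups (13434 genes) gave all comparisons among tumor libraries. Fits of 12 WT libraries (13170 genes) and 13 knockout libraries (13356 genes), with population and chimera as terms, gave the comparisons with naive cells. CPM used TMM over 25 libraries, log2 CPM a prior count of 2, and 95% intervals the normal approximation. DESeq2 1.42.0 and limma 3.58.1 were alternatives. Scripts were tested on simulated data. For the WT subsets, 4 of 100 changes of 2-fold and 72 of 100 of 4-fold were recovered, with 2 false calls. For WT tumor CD11c- IM against naive, 2 of 100 and 31 of 100 were recovered, with 0 false calls. Whether these shares hold for the 7 receptors was not tested. Between the WT subsets Scarb2, Cd36 and Msr1 were called at 1.38-fold, 1.63-fold and 2.10-fold, with log2 SE of 0.10, 0.13 and 0.15. Among those not called, the SE was 0.15 for Scarb1, 0.17 for Stab1, 0.40 for Olr1 and 0.78 for Marco. A receptor that did not pass the test can still differ.

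Label numbers were taken as pairs where same-numbered libraries deviated together over 8111 genes (knockout and WT in the IL9R chimeras, r 0.25 to 0.46, and in ARG1 CD11c- IM, r 0.21 to 0.38; CD11c+ and CD11c- labelled Il9r KO, r 0.19 to 0.40). Between CD11c+ and CD11c- libraries of WT cells, r was 0.28 in the IL9R chimeras and 0.35, 0.31 and 0.045 in the ARG1 chimeras. It was negative between the subsets of Arg1 CKO cells (-0.13 and -0.15) and between knockout and WT in ARG1 CD11c+ IM (-0.07 and -0.17). Members and lists were chosen with earlier results of these data known. The named genes were the 7 members, 3 nearest genes each by correlation among genes of at least 5 mean CPM, and from each list up to 6 called genes by smallest adjusted p between WT subsets and up to 4 elsewhere. No 2 columns were identical, and the highest correlation between libraries was 0.986. Of the lipid list, 1 gene is counted but not reported here.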

Additional observations from a re-analysis of the deposited data

Results flagged for a closer look

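Cd36 stood on opposite sides of the naive level in the WT tumor subsets: all 5 CD11c+ IM libraries were below and all 5 CD11c- IM libraries above both naive WT libraries. The subsets themselves differed by -0.70 on the log2 scale (edgeR, adjusted p = 0.0012), the value given above from the fit of 21 tumor libraries. That fit holds no naive library, so it does not test whether the subsets lie on opposite sides of naive. The contrasts with naive share the naive libraries, and neither passed the test on its own. Groups that do not overlap with naive WT were found for 39.2% of all genes with CD11c- IM and 39.1% with CD11c+ IM. In labelled knockouts Cd36 overlapped with naive, where the 2 libraries had 517 and 589 CPM. Labelled knockout CD11c+ IM ran between 359 and 529.7 CPM and CD11c- IM between 536 and 779 CPM.

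Scarb1 had differences between subsets of opposite sign under the 2 knockout labels, neither of which passed the test. CD11c+ IM minus CD11c- IM was 0.27 in cells labelled Il9r KO, above 0 in 3 of 3 libraries set beside the one of the same number (0.02, 0.15 and 0.66). It was -0.25 in Arg1 CKO cells and below 0 in 2 of 2 (-0.18 and -0.21), where the numbers do not pair the libraries. The gap of 0.53 was not tested, and the share of all genes with such opposite signs is not given here.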

How the results depend on the processing

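Of 3143 recomputed receptor values, 18 gained and 20 lost a call and the others stayed on their side of the threshold. No value called in either setting changed sign, while 122 values called in neither did, 36 of them by more than 1 standard error. Between the WT subsets the same 3 receptors were called under all alternatives run (Msr1 -1.23 to -0.86, Cd36 -0.77 to -0.64, Scarb2 0.40 to 0.54), while the count over all genes of 1550 ran from 805 to 1790 when 1 library was left out and was 894 without the 3 libraries rich in alveolar marker RNA. In cells labelled Il9r KO, 3 receptors were called between subsets, 0 with only the contrasted groups in the fit, 0 without those 3 libraries, and 1 to 5 when 1 library was left out; without CD11c+ replicate 1 Stab1 (-0.85) and Olr1 (1.66) were also called. Over all genes 798 were called, 343 with only the contrasted groups, 67 without the 3 libraries and 1255 by DESeq2. In Arg1 CKO cells 1 receptor was called, 2 by DESeq2, 3 with only the contrasted groups, 2 with a replicate block and 0 to 2 when 1 library was left out; over all genes 388, with 856, 872, 628 and 59 to 526 in that order. Msr1 passed there without WT CD11c- replicate 1 or 2 of the IL9R chimeras (edgeR adjusted p = 0.0419 and 0.0422). Labelled knockout against WT called 0 receptors, except 0 to 1 for Il9r in CD11c- IM when 1 library was left out and 1, Olr1 at 1.90 (edgeR, adjusted p = 0.035), for Arg1 in CD11c+ IM with the replicate block, where the numbers do not pair the libraries. The block changed no other call between labelled knockout and WT. By DESeq2 the counts over all genes were 29 in place of 3 and 34 in place of 4 for Il9r in CD11c- IM and CD11c+ IM, and 10 in place of 1 and 44 in place of 6 for Arg1. Against naive, leaving out 1 library gave 0 to 2 receptors in place of 2 for labelled knockout CD11c+ IM, 2 to 3 in place of 3 for labelled knockout CD11c- IM and WT CD11c+ IM, and 2 to 4 in place of 3 for WT CD11c- IM. The counts over all genes were then 3 to 2123 in place of 763, 374 to 3748 in place of 3077, 1032 to 3202 in place of 3055 and 1293 to 3579 in place of 3057; the first was also 1779 by DESeq2 and 2018 without the 3 libraries. Without scaling, calls higher in tumor were 32.4% in place of 49.2% for labelled knockout CD11c- IM and 27.6% in place of 52.8% for labelled knockout CD11c+ IM. Each genotype and chimera had 1 naive library and 2 or 3 tumor libraries of a subset, which limits the precision, and Marco had as few as 36 reads in a library (highest 944).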
